A study of Mus musculus with 6 samples.

Results

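The transcripts of 8 genes of the insulin-like growth factor (IGF) axis were followed in sorted mammary cells: the ligand Igf1, the receptor Igf1r and the IGF binding proteins Igfbp2, Igfbp3, Igfbp4, Igfbp5, Igfbp6 and Igfbp7. They were taken by symbol from the 55291 symbols in the deposited tables, by a list drawn up with earlier results of these data known. All 8 were found. Cells came from both abdominal glands of 5 pooled Adgra3-lz/+ mice per sample, 6 weeks old and of FVBN background, in which lacZ replaces a part of Adgra3, the gene for the adhesion receptor Gpr125. Every group, the Gpr125-negative cells (below, the negatives) included, carried this heterozygous allele. Cells positive for CD31, CD45 or Ter119 (endothelial, leukocyte and red cell surface proteins) were removed per the series text. The study's antibody list also holds CD140a, the product of the fibroblast gene Pdgfra. Cells with high surface CD49f (integrin α6) were divided by FDG, a substrate that fluoresces where β-galactosidase is active. There were 2 libraries each of Gpr125-negative (FDG-), TEB-distal Gpr125+ and nipple-proximal Gpr125+ (FDG+) cells, where TEB stands for the terminal end bud at the growing tip of a pubertal duct and the lymph node marked the border between the distal and the proximal part of the gland. The labels assign no region to the Gpr125-negative libraries, which therefore served both Gpr125+ groups as reference, so that these comparisons share their controls.

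IGF1 and IGF2 signal through the receptor tyrosine kinase IGF1R, which passes the signal to insulin receptor substrates, PI3 kinase and AKT. IGF binding proteins hold most of the ligand outside the cell, and can withhold it from the receptor or deliver it when proteases such as PAPP-A cut them. In the pubertal mammary gland, growth hormone acts on the stroma to raise Igf1, which together with estrogen drives terminal end bud formation and ductal elongation. The study describes TEB-distal Gpr125+ cells as equipped for growth factor binding, and the IGF axis is a part of that question which can be read gene by gene.

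Igfbp2 and Igfbp5 are neighbours on mouse chromosome 1 and run towards each other. In GRCm38, Igfbp2 lies on the plus strand from 72824503 to 72852474 and Igfbp5 on the minus strand from 72857932 to 72874884, with 5457 bases and 0 annotated genes between their ends. Against the negatives, Igfbp2 was higher and Igfbp5 lower in each Gpr125+ library, so the 250 bases before each RefSeq start (GRCm38.p6) are shown. Capitals mark the GC box core GGGCGG on either strand. The Igfbp2 window is chr1:72824230-72824479 on the plus strand and the Igfbp5 window chr1:72874866-72875115 on the minus strand, each written 5′ to 3′ along its gene.
Igfbp2: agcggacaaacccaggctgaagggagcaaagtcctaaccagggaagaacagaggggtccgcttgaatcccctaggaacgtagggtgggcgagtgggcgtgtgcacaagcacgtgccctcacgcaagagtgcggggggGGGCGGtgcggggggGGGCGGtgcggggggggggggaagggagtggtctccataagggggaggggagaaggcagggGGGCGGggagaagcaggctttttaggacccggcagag
Igfbp5: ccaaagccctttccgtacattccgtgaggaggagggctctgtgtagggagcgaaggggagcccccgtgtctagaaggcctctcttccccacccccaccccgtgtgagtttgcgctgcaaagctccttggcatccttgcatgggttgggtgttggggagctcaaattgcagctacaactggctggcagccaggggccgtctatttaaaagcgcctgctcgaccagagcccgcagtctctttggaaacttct
The Igfbp2 window held 3 GC box cores and the Igfbp5 window 0, and 67.2% and 58.8% of their bases were G or C. A GC box core was found in 32.7% of the 32851 windows of this length in the table. Among all 8 members, which each matched a window, Igfbp7 held 4 GC box cores, Igf1r 2 and the other five 0. The letters TATAAA of the TATA box (12.4% of windows) were found before Igfbp4 and, as the reverse complement TTTATA, before Igfbp6. The E-box CACGTG (6.02%) and the letters AGAACA (16.1%) were found before Igfbp2, and the letters AGGTCA (14% of windows) before Igf1 and Igf1r. Each was sought on either strand. These matches describe letters in a window and do not show binding.

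Total counts were 20134890 to 37296640 per library. Levels are given as CPM, counts scaled to a common library size after TMM normalization, which also corrects for composition. At 3 counts the lowest level visible was 0.0645 to 0.147 CPM, which covers counting error only. The 17268 genes past the expression filter were tested by edgeR's quasi-likelihood method. A call needed a Benjamini-Hochberg adjusted p (FDR) under 0.1 and a change of 2-fold or more. No gene at all was called in any of the 3 comparisons (0% of those tested), the biological coefficient of variation was 0.967, and the smallest p of an exact permutation test of 2 libraries against 2 is 0.333. Adgra3 itself averaged 27.2 ± 12.1 CPM (SD, n = 2) in the libraries labelled Gpr125-negative, compared with 9.92 ± 7.20 for the TEB-distal and 15.8 ± 4.86 for the nipple-proximal libraries, so it was not higher where the labels say Gpr125+. Of keratins, basal Krt14 was at 807 to 4697 CPM and luminal Krt8 at 413 to 1659 CPM over all libraries.

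Ligand transcripts were at or near 0. Igf1 (chromosome 10, 87858265 to 87937042) had 0 counts in 5 libraries and 3 counts in the second TEB-distal library, and was the member that did not pass the expression filter. Igf2, the fetal-type ligand, had 4 counts in the first Gpr125-negative library, 3 in the first nipple-proximal library and 0 in the others. The insulin genes Ins1 and Ins2 had 0 in all libraries. A difference in ligand between the groups was therefore not detectable at this depth.

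Igf1r, the receptor gene (chromosome 7, 67952827 to 68233668), was detected in every library. It had 73.0 and 29.8 CPM in the negatives, against 42.5 and 62.4 in TEB-distal and 83.3 and 75.2 in nipple-proximal cells. Both nipple-proximal libraries were above the other four, and the TEB-distal libraries lay between both negatives. Relative to the negatives, the log2 fold change was 0.03 in the TEB-distal (95% interval -1.55 to 1.61) and 0.63 in the nipple-proximal population (95% interval -0.96 to 2.21), and -0.60 between TEB-distal and nipple-proximal cells (95% interval -2.18 to 0.99). The FDR was 1 in each by edgeR's quasi-likelihood test. The intervals leave room for changes of 2-fold in either direction for TEB-distal cells. Without the second Gpr125-negative library the value for TEB-distal cells was -0.48, and without the second TEB-distal library -0.28.

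Igfbp2 stood apart from the other members. Its protein binds IGF1 and IGF2 and also carries an integrin-binding sequence. It had 790 and 424 counts in the negatives, against 6795 and 25451 in TEB-distal and 2942 and 1344 in nipple-proximal cells. As levels these were 17.0 and 14.4 CPM, then 265 and 866, then 144 and 63.3. Both TEB-distal libraries were above both nipple-proximal libraries, and these above the negatives. Means were 15.7 ± 1.86 CPM (SD, n = 2) for the negatives, 566 ± 425 for TEB-distal cells and 104 ± 57.4 for nipple-proximal cells.

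**Figure D1:**
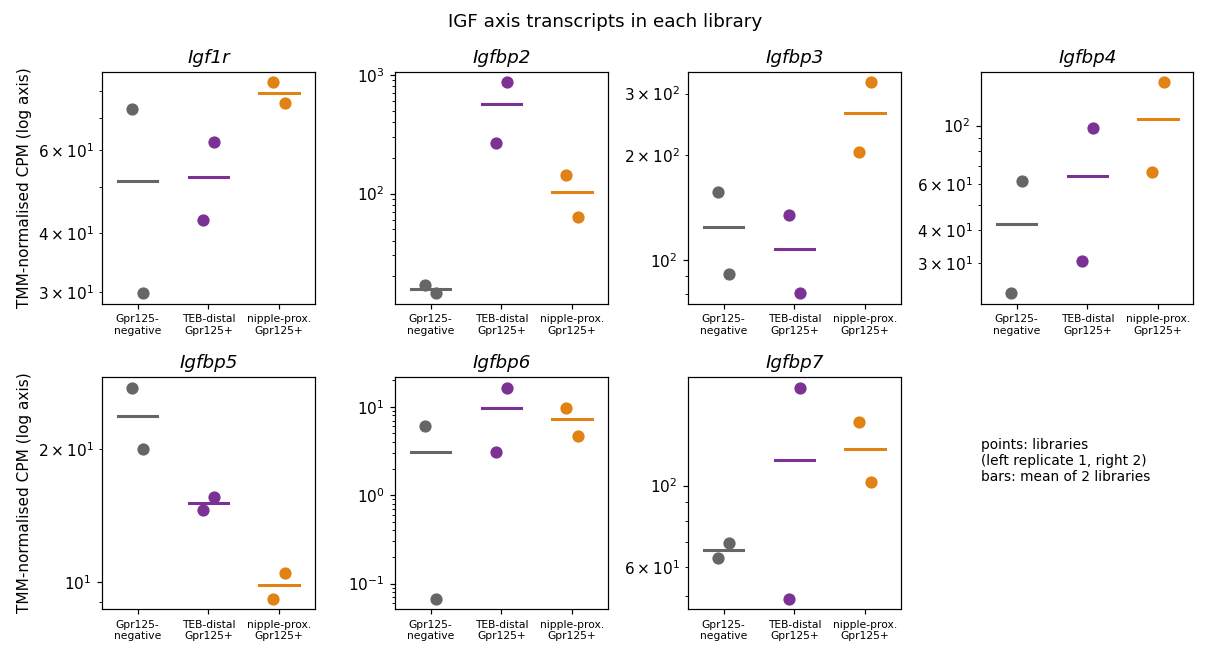
TMM-normalised CPM (log axis, a separate range in each panel) of the 7 members that passed the expression filter, with a point for each library (replicate 1 left, replicate 2 right) and a bar at the mean of both libraries of a group. The 3 groups are separate for Igfbp2, from 14.4 CPM in the lowest Gpr125-negative to 866 in the highest TEB-distal library, and for Igfbp5 in another order, and overlap for the others in at least 1 comparison.

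Igfbp2 was 36.1-fold higher in TEB-distal cells than in the negatives. On the log2 scale this was 5.17 (standard error 0.97, 95% interval 2.93 to 7.42). Its unadjusted p was 0.000792, the 8th smallest of 17268 genes and the 2nd smallest among genes higher in TEB-distal cells, and its FDR was 0.803 by edgeR's quasi-likelihood test, so that it was not called. An unadjusted p under 0.05 was reached by 6.05% of the genes tested. The call depended on the method, the gene filter and 3 of the libraries, and the fold change much less. These libraries include both nipple-proximal ones, which lie outside this comparison. Leaving out a library also changed the filter, with 19413 to 20567 genes tested against 17268. The part of the library itself therefore cannot be told apart from that of the filter and the fitted spread. DESeq2 called Igfbp2, with an adjusted p of 0.00161 on the 4 compared libraries, where 4.33% of genes were called, and of 1.45e-05 on all 6, where 5.43% were. edgeR called it with every gene of at least 1 count in the test (FDR 0.000378). edgeR also called it without the first Gpr125-negative library (FDR 0.0905), the first nipple-proximal library (FDR 0.0451) or the second nipple-proximal library (FDR 0.0391). Where this left a group with a lone library, that library was assumed to vary like the other groups. Leaving out 1 library at a time gave log2 fold changes of 4.07 to 5.78, with the FDR between 0.342 and 0.921 for the other 3 libraries.

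In nipple-proximal cells Igfbp2 was 6.62-fold above the negatives, or 2.73 on the log2 scale (standard error 0.86, 95% interval 0.72 to 4.74). The unadjusted p was 0.0142 and the FDR 1 by edgeR's quasi-likelihood test, where 3.55% of genes had an unadjusted p under 0.05. DESeq2 did not call it either (adjusted p = 0.209 on the 4 compared libraries and 0.193 on all 6, where 1.97% of genes were called). Leaving out 1 library gave 2.01, without the first nipple-proximal library, to 3.22. Between both Gpr125+ populations, Igfbp2 was 5.45-fold higher in TEB-distal cells, or 2.45 on the log2 scale (standard error 0.85, 95% interval 0.46 to 4.43). The unadjusted p was 0.0220 and the FDR 1 by edgeR's quasi-likelihood test, with 2.21% of genes at an unadjusted p under 0.05. DESeq2 on the 4 compared libraries called this difference (adjusted p = 0.0860), as it did 2.26% of genes, and DESeq2 on all 6 libraries did not (adjusted p = 0.338, with 0.844% of genes called). Without the second TEB-distal library the log2 fold change was 1.33.

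Igfbp5, the neighbour of Igfbp2 and a binding protein associated with involution of the gland, was lower in all 4 Gpr125+ libraries than in the negatives. It had 27.6 and 20 CPM in the negatives, against 14.6 and 15.6 in TEB-distal and 9.18 and 10.5 in nipple-proximal cells. The groups did not overlap, with the negatives highest and both nipple-proximal libraries lowest. The log2 fold change against Gpr125-negative cells was -0.65 in TEB-distal (standard error 0.79, unadjusted p = 0.431) and -1.28 in nipple-proximal cells (standard error 0.80, unadjusted p = 0.149), with an FDR of 1 in both by edgeR's quasi-likelihood test. These differences did not exceed the modelled spread. Within a library, where scaling plays no part, there were 0.617 and 0.717 counts of Igfbp2 for each count of Igfbp5 in the Gpr125-negative libraries. The ratio was 18.1 and 55.4 in TEB-distal and 15.7 and 6.05 in nipple-proximal cells. All 4 Gpr125+ libraries were thus above both negatives in this ratio.

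Igfbp3, the main carrier of IGF in blood (chromosome 11, 7206086 to 7213923, minus strand), had 157 and 91.1 CPM in the negatives, against 135 and 80.3 in TEB-distal and 204 and 323 in nipple-proximal cells. Both nipple-proximal libraries were highest, and TEB-distal and Gpr125-negative libraries overlapped. The log2 fold change was -1.29 between TEB-distal and nipple-proximal cells (standard error 0.70, unadjusted p = 0.103) and 1.09 between nipple-proximal and Gpr125-negative cells (standard error 0.70, unadjusted p = 0.158), both with an FDR of 1 by edgeR's quasi-likelihood test. For TEB-distal against Gpr125-negative cells it was -0.21, which turned to 0.10 without the first Gpr125-negative library and 0.12 without the second TEB-distal library. Within a library there were 0.108 and 0.158 counts of Igfbp2 per count of Igfbp3 in the negatives, against 1.96 and 10.8 in TEB-distal and 0.708 and 0.196 in nipple-proximal cells.

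Igfbp4, a target of the protease PAPP-A (chromosome 11, 99041244 to 99054392), had 23.0 and 61.7 CPM in the negatives, against 30.4 and 97.6 in TEB-distal and 66.3 and 146 in nipple-proximal cells. Libraries of a group differed by more than 2-fold in each of the 3 groups, and TEB-distal libraries overlapped with both other groups. Igfbp7, a relative that binds IGF weakly (chromosome 5, 77349240 to 77408041), had 63.6 and 69.7 CPM in the negatives, against 49.2 and 185 in TEB-distal and 149 and 102 in nipple-proximal cells. Both TEB-distal libraries lay outside the range of the other groups, below and above. An exon of Igfbp7 overlaps one of Polr2b on the other strand, and counting did not use strand, so that reads there cannot be told apart. Igfbp6, which prefers IGF2 (chromosome 15, 102144362 to 102149511), had 281 and 2 counts in the negatives, against 79 and 486 in TEB-distal and 200 and 100 in nipple-proximal cells. The first TEB-distal and the second nipple-proximal library lay between both negatives in CPM, and the other Gpr125+ libraries above them.

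For Igfbp4, Igfbp6 and Igfbp7 the log2 fold changes against Gpr125-negative cells were 0.60, 1.68 and 0.81 in TEB-distal cells and 1.33, 1.25 and 0.91 in nipple-proximal cells, with an FDR of 1 for each by edgeR's quasi-likelihood test. None exceeded its modelled spread, and the unadjusted p-values were 0.165 to 0.515. Without the second TEB-distal library the values for TEB-distal cells were -0.48 for Igfbp4, 0.00 for Igfbp6 and -0.44 for Igfbp7, and without the first Gpr125-negative library that of Igfbp4 was -0.06. Without the same negative library Igfbp6 was at 6.97 in TEB-distal cells and 6.52 in the nipple-proximal ones, still with an FDR of 0.111 and 0.159 by the same edgeR test, in which the lone negative was assumed to vary like the other groups.

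**Figure D2:**
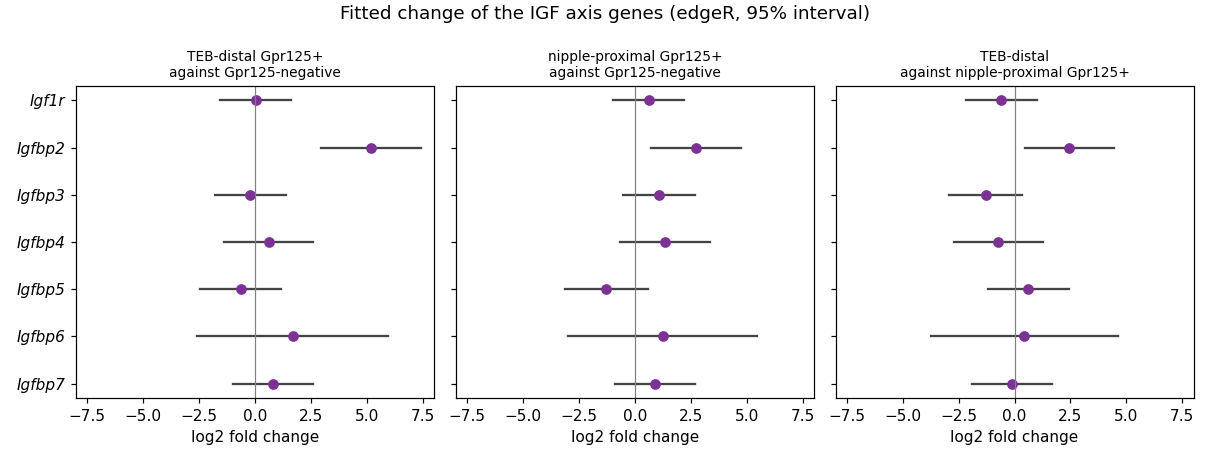
Log2 fold change (points) and 95% interval (lines) of the 7 tested members from edgeR's quasi-likelihood fit, in the 3 comparisons, with a line at no change. The interval of Igfbp2 lies above 0 in all 3 panels, from 2.93 to 7.42 for TEB-distal against Gpr125-negative cells, and the intervals of the other members include 0.

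As a group, 5 of the 7 tested members had a log2 fold change above 0 in TEB-distal against Gpr125-negative cells, with a median of 0.60, where 51.1% of all genes did and their median was 0.03. In nipple-proximal against Gpr125-negative cells 6 of 7 did, with a median of 1.09, where 49.6% of all genes did. Both libraries of a group were higher than both of the other for 1 member in the first comparison (Igfbp2), where 14% of all genes were, and for 5 members in the second (all but Igfbp5 and Igfbp6), where 19.9% were. Both were lower for 1 member, Igfbp5, in each, where 10% and 10.8% of all genes were. Between TEB-distal and nipple-proximal cells both were higher for Igfbp2 and Igfbp5 (15.2% of all genes) and lower for Igf1r and Igfbp3 (18.3% of all genes), and the median was -0.10, with 3 of 7 above 0, where 52.6% of all genes were. The members thus did not share a direction between both Gpr125+ populations. edgeR's quasi-likelihood test called 0 members. At an unadjusted p under 0.05, 1 member, Igfbp2, passed in each comparison.

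The makeup of the binding proteins was compared per length, as CPM per kilobase of exon. In the Gpr125-negative libraries Igfbp7 (55.1 ± 3.56 CPM per kilobase, SD, n = 2) and Igfbp3 (39.7 ± 15.0) led, without overlap, ahead of Igfbp4 (9.59 ± 6.19), Igfbp2 (8.49 ± 1.01), Igfbp5 (3.96 ± 0.888) and Igfbp6 (2.75 ± 3.80). Libraries of Igfbp4 and Igfbp2 overlapped, as did those of Igfbp5 and Igfbp6. In TEB-distal cells the order began with Igfbp2 (306 ± 230), Igfbp7 (96.8 ± 79.3) and Igfbp3 (34.4 ± 12.4), and in nipple-proximal cells with Igfbp7 (104 ± 27.2), Igfbp3 (84.2 ± 26.9) and Igfbp2 (56.2 ± 31.1). The neighbours in both of these orders overlapped across libraries.

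Igfbp2 made up 7.23% and 6.95% of the summed Igfbp level in the Gpr125-negative libraries. It made up 59.9% and 68.3% in TEB-distal and 26.8% and 13.1% in nipple-proximal cells. The summed level itself was 127 and 112 CPM per kilobase in the negatives, against 239 and 687 in TEB-distal and 292 and 261 in nipple-proximal cells. Igfbp2 was the largest part in both TEB-distal libraries, Igfbp3 in the second nipple-proximal library and Igfbp7 in the other three. Not divided by length, Igfbp3 was the largest part in both negatives and both nipple-proximal libraries, and Igfbp2 remained so in both TEB-distal libraries. Igfbp7 had 41.3% and 51.5% in the negatives, against 17.0% and 22.2% in TEB-distal and 42.1% and 32.3% in nipple-proximal cells. Among 16941 genes ranked by this level, Igfbp2 was 4025th and 4691st in the negatives, against 307th and 122nd in TEB-distal and 661st and 1598th in nipple-proximal cells.

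**Figure D3:**
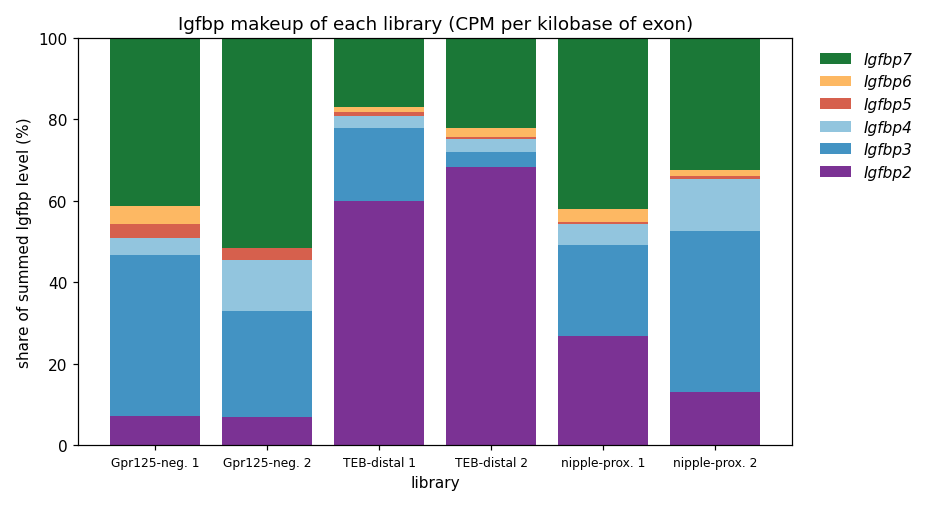
Share of each binding protein gene in the summed Igfbp level of a library (percent, from CPM per kilobase of exon), with a bar for each of the 6 libraries. Igfbp2 takes 59.9% and 68.3% of the TEB-distal bars, against at most 26.8% in the other libraries.

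Markers of other cell types moved with the groups. The summed level of 12 endothelial markers was 1450 and 989 CPM in the negatives, against 21.4 and 25.0 in TEB-distal and 285 and 33.1 in nipple-proximal cells, although CD31+ cells had been removed. The endothelial gene Pecam1, which encodes CD31, was still at 43.4 and 56.2 CPM in the negatives. Igfbp2 was lowest where endothelial markers were highest, whereas Igfbp5 was highest there. The 12 basal markers summed to 3393 and 3554 CPM in the negatives, against 4017 and 23031 in TEB-distal and 9449 and 14952 in nipple-proximal cells. Keratins made up most of this sum in the negatives. Among the contractile genes of the list, Acta2 was at 190 and 511 CPM in the negatives and at 1405 to 7767 in the Gpr125+ libraries, and Myl9 at 6.37 and 13.3 against 71.7 to 393. Of the 12 basal markers, 7 had TEB-distal levels above those of the negatives without overlap, where 14% of all genes did. The median log2 fold change of the 12 was 2.55. Trp63 was lower without overlap (58.1 and 8.4 against 7.33 and 6.47 CPM), as were 10% of all genes. In nipple-proximal cells 10 were above the negatives without overlap (19.9% of all genes). Between both Gpr125+ populations only 1 was higher and 1 lower without overlap in TEB-distal cells (15.2% and 18.3% of all genes). Igfbp2 was higher in TEB-distal cells, also without overlap. Fibroblast markers (10 genes, Fap at most 3 counts in every library) summed to 28.6 and 148, 89.9 and 175, and 69.4 and 54.6 CPM in the same order, with Dcn the largest part. Of the 8 tested, 7 had a log2 fold change above 0 in TEB-distal cells against the negatives (median 1.81), where 51.1% of all genes did. In TEB-distal cells 5 were above nipple-proximal cells without overlap, where 15.2% of all genes were. Pdgfra, Col1a1, Col1a2 and Col3a1 were each highest in the 2 TEB-distal libraries, as was Igfbp2, at 4.12 to 27.1 CPM there and at most 3.49 elsewhere. Dcn, Lum and Mfap5 were instead highest in the second Gpr125-negative library (122, 19.5 and 3.52 CPM). Dpt and Pi16 were at 8.14 and 0.919 CPM in the second TEB-distal library, but at 0.078 and 0 in the first. Pericyte markers (8 genes) summed to 1.67 to 27.9 CPM, leukocyte markers (9 genes) to 20.1 to 72.3 CPM and luminal markers (12 genes) to 652 to 2338 CPM over all libraries. Krt8 and Krt18 made up most of the luminal sum. Of the 12 luminal markers, 9 had a log2 fold change above 0 in TEB-distal cells against the negatives (median 0.98). Prlr, Esr1 and Csn3 were at 116, 31.9 and 54.4 CPM in the first TEB-distal library, but at 0, 0.0681 and 11.1 in the second. Krt8, Krt19, Elf5, Pgr and Cited1 were instead higher in the second. Adipocyte markers (5 genes) summed to 672 and 631 CPM in the negatives and 1.65 to 23.6 in the others, nearly all of it Fabp4, while Plin1, Lep and Cidec had at most 3 counts everywhere. Schwann cell markers (4 genes) summed to 34.6 to 252 CPM, erythroid markers (5 genes) to at most 1.32 CPM, and 6 proliferation genes to 12.6 and 9.62 in the negatives, against 44.3 and 50.9 in TEB-distal and 26.3 and 18.2 in nipple-proximal cells. The part of these cells in the differences of the IGF axis was not tested, and in bulk RNA fewer cells of a type and less RNA per cell cannot be told apart.

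**Figure D4:**
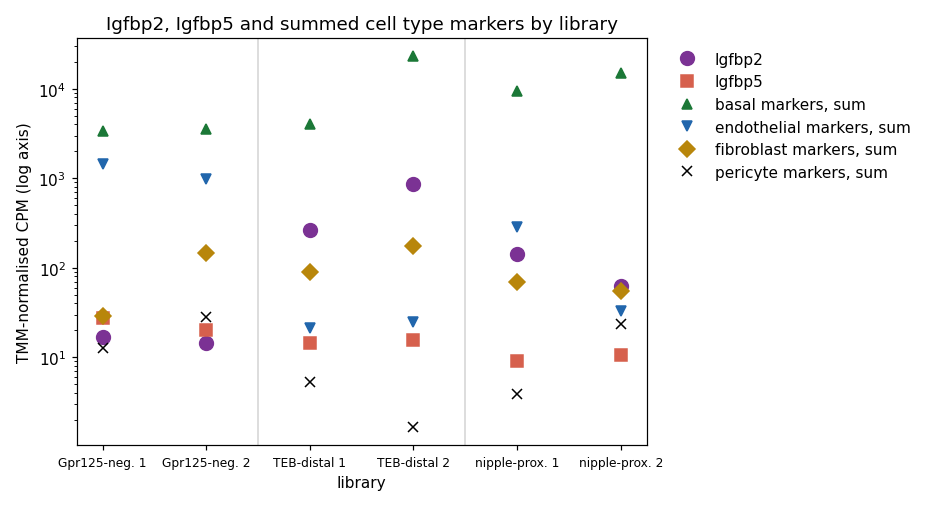
TMM-normalised CPM (log axis) of Igfbp2 and Igfbp5 in each of the 6 libraries, beside the summed level of basal, endothelial, fibroblast and pericyte marker genes. Endothelial markers are at 989 CPM or more in both Gpr125-negative libraries and at 285 or less in the others, where Igfbp2 is at 63.3 CPM or more.

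Genes whose pattern over the 6 libraries was most like that of a member were found by Pearson's r of log2 CPM among 8170 other genes of a mean log2 CPM of at least 3. For Igfbp2 these were Col4a1, which encodes a basement membrane collagen (r = 0.992), Itga7, which encodes a laminin-binding integrin chain (r = 0.987), and Clta, which encodes a clathrin light chain (r = 0.967). For Igfbp3 they were Zdhhc13, Vps26b and Adcy3 (r = 0.968 to 0.977), and for Igfbp5 Sft2d3, Fstl1 and Mrpl40 (r = 0.957 to 0.959). For Igf1r they were Trp53rka, Tnpo2 and Tfe3, for Igfbp4 Slc25a33, Cdcp1 and Rasd2, for Igfbp6 Ulk1, Dnal4 and Fzr1, and for Igfbp7 Banp, Cdt1 and Rpl14-ps1, all with r of at least 0.981. These values are descriptive, since the genes were selected for them and the libraries share their groups. Among the members themselves, r ranged from -0.64 for Igfbp4 and Igfbp5 to 0.85 for Igf1r and Igfbp6, and that of Igfbp2 and Igfbp5 was -0.49.

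The rest of the pathway was read from 33 further genes of the IGF axis, of which 26 passed the expression filter. Of these, 0 were called in any comparison by edgeR's quasi-likelihood test (0% of all genes). At an unadjusted p under 0.05, 1 gene (Stc1) was lower in TEB-distal cells than in either other group (2.25% and 1.46% of all genes were) and 1 (Stc2) higher in nipple-proximal cells than in the negatives (2.62% of all genes), or 1 of 26 each time, near the shares of all genes. The median log2 fold change was -0.01 in TEB-distal cells and 0.01 in the nipple-proximal ones against Gpr125-negative cells. Among receptors, Insr, the insulin receptor, had 65.6 and 39.1 CPM in the negatives, against 86.8 and 73.5 in TEB-distal and 65.3 and 101 in nipple-proximal cells, with 0.489 to 1.28 counts of Igf1r for each count of Insr over all libraries. Igf2r, which clears IGF2, was at 10.9 to 36.1 CPM with overlapping groups. Among binding partners, Igfbp1 had 0 counts in every library, and Igfals, whose product stabilises IGF complexes in blood, was at most at 1.52 CPM. Pappa, which encodes PAPP-A, was at 7.73 to 25.9 CPM with a log2 fold change of 0.01 in TEB-distal (95% interval -2.13 to 2.14) and -0.43 in nipple-proximal cells (95% interval -2.57 to 1.71). Of the insulin receptor substrates, Irs1 was at 0.732 to 12.5 CPM with overlapping Gpr125+ and negative libraries. Irs2 was more abundant, with 271 and 194 CPM in the negatives, against 322 and 700 in TEB-distal and 648 and 512 in nipple-proximal cells. Both Gpr125+ groups were above the negatives without overlap, as were 14% and 19.9% of all genes. Its log2 fold changes were 1.13 (95% interval -0.56 to 2.83) and 1.32 (95% interval -0.38 to 3.02), and neither was called.

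The stanniocalcins, whose proteins inhibit PAPP-A, held the lowest p-values of this list. Stc1 had 834 and 1177 counts in the negatives, against 0 and 3 in TEB-distal and 406 and 47 in nipple-proximal cells. Both TEB-distal libraries were thus at or below 3 counts. Endothelial markers were also lowest in these libraries. In nipple-proximal cells Stc1 was at 19.9 and 2.21 CPM, where the endothelial markers summed to 285 and 33.1. In the negatives Stc1 was at 17.9 and 39.9 CPM, where they summed to 1450 and 989, the opposite order. The part of endothelial cells in the level of Stc1 was not tested. From summed counts its level was 485-fold higher in Gpr125-negative than TEB-distal cells (exact 95% interval 166 to 2355, counting error only) and 200-fold higher in nipple-proximal than TEB-distal cells (67.9 to 972). The unadjusted p was 0.00187 and 0.00363, with an FDR of 0.803 and 1 by edgeR's quasi-likelihood test, and DESeq2 on the 4 compared libraries gave adjusted p-values of 4.3e-06 and 0.000197. Stc2 had 14.6 and 26.7 CPM in the negatives, against 17.2 and 63.7 in TEB-distal and 56.9 and 160 in nipple-proximal cells. In nipple-proximal cells its log2 fold change was 2.39 (standard error 0.91, unadjusted p = 0.0312, FDR 1 by edgeR's quasi-likelihood test). Both nipple-proximal libraries were above the negatives, and the TEB-distal libraries overlapped with both other groups.

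Growth factor binding beyond the IGF axis was read from 62 genes for receptors and binding proteins of other growth factors, of which 58 were tested. None was called by edgeR's quasi-likelihood test in any comparison (0% of all genes). For TEB-distal against Gpr125-negative cells, 6 were higher and 4 lower at an unadjusted p under 0.05, where 3.8% of all genes were higher and 2.25% lower. The median log2 fold change was 0.25 (0.03 for all genes), and 34 of 58 were above 0, where 51.1% of all genes were. For nipple-proximal cells 2 were higher and 1 lower, where 2.62% and 0.927% of all genes were, with a median of 0.02. Between both Gpr125+ populations 1 was higher and 1 lower in TEB-distal cells, where 0.747% and 1.46% of all genes were, with a median of 0.13. DESeq2 on the 4 compared libraries called 5, 1 and 5 of the 62 in these comparisons, in the same order, and 4.33%, 2% and 2.26% of all genes.

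Among these genes, Bmpr1b, a receptor of bone morphogenetic proteins, had 1 and 0 counts in the negatives, against 374 and 131 in TEB-distal and 16 and 17 in nipple-proximal cells. All Gpr125+ libraries were above both negatives (unadjusted p = 0.00342 for TEB-distal cells and 0.0207 for the nipple-proximal ones, FDR 0.803 and 1, edgeR's quasi-likelihood test). Col4a1, counted here because collagens bind platelet-derived growth factor, had 223 and 156 CPM in the negatives, against 825 and 1892 in TEB-distal and 562 and 417 in nipple-proximal cells. Its group order was that of Igfbp2, with a log2 fold change of 2.84 in TEB-distal cells (standard error 0.81, FDR 0.803, edgeR's quasi-likelihood test). Col6a1 had the lowest p of the list against Gpr125-negative cells (0.000182 in TEB-distal cells and 8.47e-05 in the nipple-proximal ones, FDR 0.631 and 1, edgeR's quasi-likelihood test), with 0.0645 and 0.135 CPM in the negatives and 12.9 to 50.2 in the Gpr125+ libraries. Col1a2 was at 12.7 and 27.1 CPM in TEB-distal and at 2.16 to 3.44 in all other libraries, and is also among the fibroblast markers above. Ntrk3, a neurotrophin receptor, was at 0.667 and 0.102 CPM in the negatives, against 2.22 and 24.4 in TEB-distal and 6.09 and 5.56 in nipple-proximal cells.

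Those lower in TEB-distal than Gpr125-negative cells included Lrrc32, which anchors latent TGF-β, at 242 and 24.8 CPM in the negatives, against 2.22 and 2.25 in TEB-distal and 13.2 and 11.2 in nipple-proximal cells. Flt4, a VEGF receptor, was at 14.1 and 18.5 CPM in the negatives and 0.851 and 2.22 in the TEB-distal libraries. Tgfbr3, a TGF-β co-receptor, was at 87.1 and 60.5 against 26.1 and 20.8 CPM. Lrrc32 and Tgfbr3 were lowest in the 2 TEB-distal libraries, which also had the lowest endothelial markers, and the part of endothelial cells in this was not tested.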

How the data were processed

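RNA of 6 libraries (SMART-Seq HT, full-length cDNA, no molecular identifiers) was sequenced. Reads were mapped to mm10 with STAR (2.7.3 in the submitters' processing notes, an earlier version in the paper's methods) and counted with HTSeq without strand, and the authors deposited raw counts per gene symbol. Of 55291 symbols, 96.4% are in GENCODE M21 (GRCm38), which gave coordinates and exon lengths. The release used for counting is not given in the sources used here. The paper's methods give another age range and pool size than the sample labels, which were followed.

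Counts were fitted in R 4.3.3 with edgeR 4.0.16 (TMM, filterByExpr, robust quasi-likelihood fit), with all 6 libraries in 1 model of the groups. Standard errors came from the F statistic, and log2 CPM used a prior count of 2. Alternatives were DESeq2 1.42.0, its size factors, other filters, a replicate block and leaving out each library. Scripts were tested on simulated counts. Nothing beyond the labels says that replicates were separate pools of mice, so p-values measure only the spread between these libraries, and intervals from counts cover counting error only.

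The members and lists were chosen with earlier results of these data known. Named were all members, Adgra3, Igf2, Igf2r, Insr, Irs1, Pappa, Igfbp1 and Igfals, in each comparison up to 5 further listed genes per direction with the smallest unadjusted p under 0.05, and the 3 genes most like each member. Ins1, Ins2, Irs2, single marker genes and the further CCN genes were chosen with their values in view.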

Additional observations from a re-analysis of the deposited data

How the results depend on the processing

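Under alternatives other than leaving out a library, 160 log2 fold changes of members kept their direction and side of the threshold, 4 were reversed and 4 newly called. On leaving out a library these numbers were 112, 11 and 3. For Igfbp2 in TEB-distal cells against the negatives, DESeq2 gave 5.12 on all 6 and 5.11 on the 4 compared libraries, and edgeR on every gene counted at least once gave 5.15, each a call, and leaving out 1 library gave 4.07 to 5.78. Against nipple-proximal cells DESeq2 on 4 libraries gave 2.48, a call. Reversed were Igf1r in TEB-distal cells against the negatives (-0.01, DESeq2 on 4 libraries) and Igfbp7 between the Gpr125+ populations (0.01 by DESeq2 on 6 libraries, 0.02 with its size factors, 0.00 at 1 CPM or more in 2 libraries). Leaving out 1 library against the negatives gave -0.48 to 0.69 for Igf1r, -0.63 to 0.12 for Igfbp3, -0.48 to 1.47 for Igfbp4 and -0.44 to 1.46 for Igfbp7 in TEB-distal cells. Between the Gpr125+ populations it gave -1.26 to 1.25 for Igfbp6 and -1.37 to 0.62 for Igfbp7. The cause was not tested.

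Calls, 0 by edgeR as reported, are given for DESeq2 on 6 libraries, DESeq2 on 4, edgeR on every gene counted at least once, and the range on leaving out 1 library. In TEB-distal cells against the negatives they were 943, 682, 137 and 0 to 747 over all genes, 9, 5, 2 and 0 to 7 for growth factor binding, and 1, 1, 1 and 0 to 1 for the members and for the other IGF axis genes. In nipple-proximal cells they were 321, 317, 58 and 0 to 335 over all genes and 3, 1, 1 and 0 to 2 for growth factor binding. Between the Gpr125+ populations they were 133, 357, 39 and 0 to 12 over all genes and 1, 1, 1 and 0 to 1 for the other IGF axis genes, while DESeq2 on 4 libraries called 5 growth factor binding genes and 1 member. Not divided by length, mean Igfbp shares that moved by more than the SD between replicates were, in the order negatives, TEB-distal and nipple-proximal, 15.9%, 6.93% and 16.9% for Igfbp4, 8.57%, 2.09% and 1.59% for Igfbp5, and 24.4%, 12.3% and 20.6% for Igfbp7, with 5.68% for Igfbp2 and 44.4% for Igfbp3 in the negatives and 1.21% for Igfbp6 in nipple-proximal cells. The other 6 moved by less than that SD, which was large for Igfbp6 in the negatives (2.16% to 1.04%).

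Same-numbered libraries deviated from their group means together with r of -0.0347 to 0.194 over 17268 genes. In a group of 2 libraries these deviations are equal and opposite, so r cannot decide whether same-numbered libraries share more than a number. With the replicate block 0 genes were called in each comparison, Igfbp2 was at 5.15, 2.74 and 2.41, and Igfbp6 in TEB-distal cells moved from 1.68 to 2.76. Igf1 and Igf2 were at or near 0 counts at this depth, and the reason was not tested. With 2 libraries a group, the spread between libraries limits the other members.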

Other observations

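Relatives of the IGF binding proteins were read from 10 genes, of which 8 passed the expression filter. edgeR's quasi-likelihood test called 0 of them in each comparison (0% of all genes). At an unadjusted p under 0.05, 1 was higher and 1 lower in TEB-distal cells than in the negatives (3.8% and 2.25% of all genes were), 0 passed in nipple-proximal cells (3.55% of all genes), and 1 was lower in TEB-distal than in nipple-proximal cells (1.46% of all genes). The median log2 fold change was -1.12, 0.09 and -0.32 in the same order.

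Htra1, which encodes a secreted protease with an IGFBP-like domain, had 14.6 and 6.20 CPM in the negatives, against 32.8 and 82.2 in TEB-distal and 30.3 and 15.4 in nipple-proximal cells. Its groups followed the order of Igfbp2 without overlap, with a log2 fold change of 2.47 in TEB-distal cells (standard error 0.87, FDR 0.803, edgeR's quasi-likelihood test). Ccn3, a matricellular CCN gene, had 288 and 87 counts in the negatives, 0 and 0 in TEB-distal and 132 and 50 in nipple-proximal cells. Set against 3 counts per library, it was at least 41.7-fold higher in the negatives and at least 40.3-fold higher in nipple-proximal than in TEB-distal cells (unadjusted p = 0.0052 and 0.0053, FDR 0.803 and 1, edgeR's quasi-likelihood test). The CCN genes Ccn1 and Ccn2, which are known to respond to YAP, were at 249 to 2619 and 33.6 to 411 CPM over all libraries, with groups that overlapped in each comparison.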
